A study of Mus musculus with 6 samples.

Results

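The C/EBP transcription factors were examined in 32D cells with and without the Nup98::Nsd1 fusion gene. The members were Cebpa, Cebpb, Cebpd, Cebpe and Cebpg, each represented by every probe set that the array's annotation lists under that symbol alone. This gave 8 probe sets of 45037 that are not controls: 1 for Cebpa, 2 for Cebpb, 2 for Cebpd and 3 for Cebpg, or 4 of the 18193 genes with such a probe set. None was listed for Cebpe, which has no value here. 32D is an IL-3-dependent line that grew out of C3H/HeJ mouse bone marrow infected with Friend leukemia virus. The 6 samples were 3 of mock-transduced cells, labelled MSCVpuro after a retroviral vector with a puromycin marker, and 3 of Nup98::Nsd1-transduced cells, each measured on 1 Affymetrix Mouse430_2 array. The sources used here do not say which promoter drives the fusion, how transduced cells were selected or whether a line is a clone or a pool. They also do not say whether the 3 samples of a group came from separate cultures, so a p-value reflects the spread of these samples alone, which may be technical. All values are MAS5 signals, a linear intensity that the authors scaled on each array, and a probe set is called Present, Marginal or Absent by the detection test of the same software.

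C/EBP proteins bind DNA as dimers through a basic region and a leucine zipper, and any member can pair with any other. In the myeloid lineage C/EBPalpha is needed for progenitors to become granulocytes and monocytes and slows their division, and its gene is mutated in a share of acute myeloid leukaemias. C/EBPbeta drives granulocyte production under stress and macrophage inflammatory genes, C/EBPdelta is an acute-phase factor that G-CSF induces, and C/EBPepsilon acts late, in granulocytes that fill their secondary granules. C/EBPgamma is short and lacks a transactivation domain; it acts through its partners, among them C/EBPbeta and ATF4.

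As deposited, each of the 4 measured C/EBP genes was higher in Nup98::Nsd1 cells. Cebpg rose the most, 3.22-fold (log2 fold change 1.69, 95% confidence interval 1.59 to 1.78), ahead of Cebpa at 1.83-fold (95% confidence interval 1.63 to 2.05), Cebpb at 1.45-fold (1.32 to 1.59) and Cebpd at 1.36-fold (1.25 to 1.48). All 7 tested probe sets passed an adjusted p of 0.05 in limma (Benjamini-Hochberg over 20494 probe sets) and were higher, where 42.3% of all tested probe sets were called higher, 27.6% lower and 69.9% in either direction. Of the 7, the 3 of Cebpg rose at least 2-fold, against 12.8% of tested probe sets. The groups did not overlap at any of these 7, as at 73.2% of all tested probe sets, and all 7 were called Present on all 6 arrays. The median tested probe set stood at a log2 fold change of 0.15 as deposited and at -0.21 with hybridization control scaling. Under that scaling the brighter Cebpb probe set, at 0.17 (limma adjusted p = 0.0648), and Cebpd, at 0.08 (adjusted p = 0.373), did not pass. Of 20494 tested probe sets, 3.38% to 4.76% rose more than the Cebpg probe sets, 16.3% more than Cebpa, 20.2% and 28.9% more than the 2 of Cebpb, and 33.1% more than Cebpd.

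**Figure D1:**
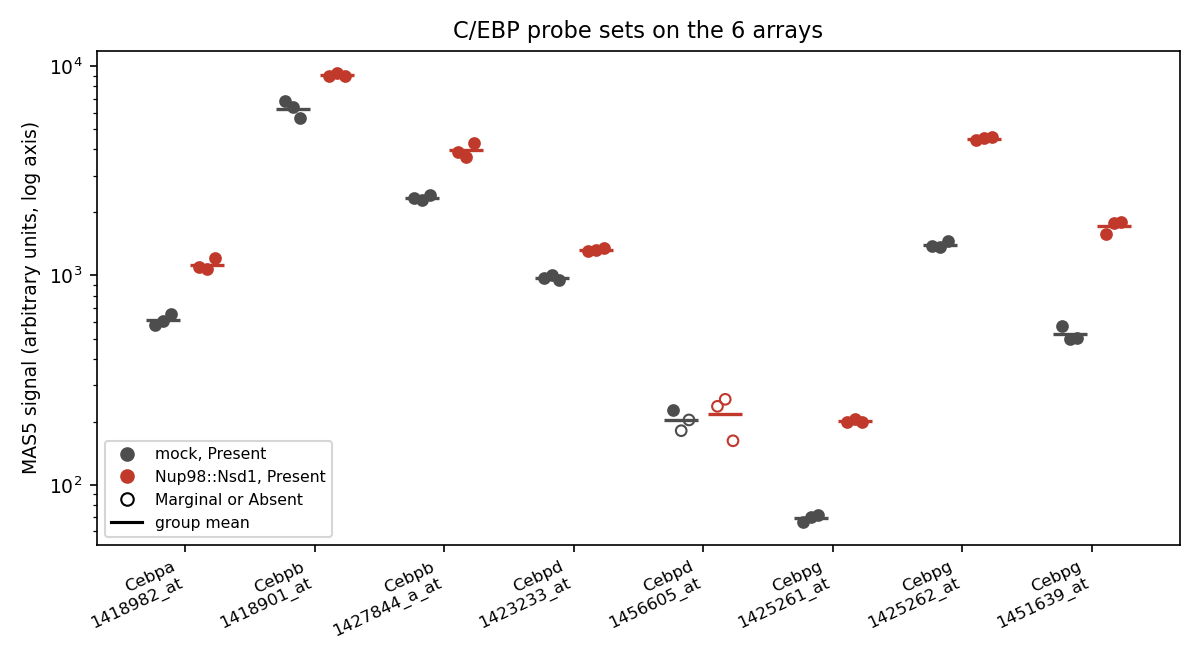
MAS5 signal (arbitrary units, log axis) of the 8 C/EBP probe sets on 3 mock arrays (grey) and 3 Nup98::Nsd1 arrays (red), with group means as lines and open circles for Marginal or Absent calls. The groups are separate at 7 probe sets and mixed at Cebpd probe set 1456605_at, and the widest gap is that of Cebpg.

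The 6 arrays were comparable in the main, with differences that follow the groups. Present calls covered 45.1% to 45.9% of probe sets on mock arrays and 47.6% to 48.2% on Nup98::Nsd1 arrays. The signal of the control probe set at the 3' end of Actb over that at its 5' end, which rises as RNA degrades or labelling falls short, ran from 1.15 to 1.20 on mock and from 1.45 to 1.5 on Nup98::Nsd1 arrays. The hybridization controls, transcripts meant to be added in equal amounts, had a mean log2 signal of 12.1 to 12.2 on mock and 12.5 to 12.6 on Nup98::Nsd1 arrays. The part of the Actb ratio in the results was not tested, while scaling each array to the hybridization controls was tried and is given beside each C/EBP gene and beside list genes whose call or direction it changes. Il3ra, which encodes CD123, the IL-3 receptor chain that the study is about, rose from 331 ± 23.9 to 1089 ± 82.3, and Nsd1 was called Present on no array at any of its 4 probe sets. Nup98 was higher at both of its probe sets, by 0.52 and 0.47 on the log2 scale (limma adjusted p = 0.0015 and 6.19e-06). Nothing in the sources used here places the probe sets of either gene within the fusion construct.

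Cebpg had the largest change of the family, and its 3 probe sets gave nearly the same size of change. The brightest, 1425262_at, read 1376, 1374 and 1456 on the mock arrays and 4428, 4511 and 4589 on the Nup98::Nsd1 arrays. All Nup98::Nsd1 arrays lay far above all mock arrays, and the spread within each group was small (1402 ± 46.5 against 4509 ± 80.2, mean ± SD, n = 3 each). The log2 fold change was 1.69 (SE 0.045, limma adjusted p = 1.56e-10). Probe set 1451639_at read 573, 497 and 505 in mock cells and 1585, 1789 and 1807 in Nup98::Nsd1 cells, a log2 fold change of 1.72 (SE 0.076, adjusted p = 5.37e-09). The dimmest, 1425261_at, read 66.3, 69.9 and 71.7 against 199, 206 and 199, a log2 fold change of 1.54 (SE 0.163, adjusted p = 5.57e-06). All 3 cite the same transcript record in the annotation, so they are not independent of each other. The spread of 0.18 between their log2 fold changes was smaller than that of 81.6% of the 4711 genes with several tested probe sets. Under the other scalings the brightest ran from 1.32, with hybridization control scaling, to 1.75, with quantile normalization.

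Cebpg and Cebpa lie close together on mouse chromosome 7, with Gm45095 between them. The promoters of the measured members are printed because they moved in the same direction, and the RefSeq table used here (build GRCm38.p6) held those of Cebpg, Cebpa and Cebpb. Each stretch is the 250 bases before the annotated start, on the gene's strand, 5′ to 3′. Capitals mark CCAAT or its complement ATTGG in Cebpg, on the minus strand at chr7:35056567-35056816:
Cebpg: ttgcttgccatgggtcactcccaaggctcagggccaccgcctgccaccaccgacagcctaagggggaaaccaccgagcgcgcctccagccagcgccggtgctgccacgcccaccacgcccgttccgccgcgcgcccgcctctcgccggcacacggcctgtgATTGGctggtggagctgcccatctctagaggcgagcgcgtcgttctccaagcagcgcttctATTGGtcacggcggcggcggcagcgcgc
CCAAT, the box after which the C/EBP family was named and which NF-Y also binds, occurs 2 times, 89 and 28 bases before the start. Of 32851 promoter stretches of this length in the table, 33.8% hold CCAAT on either strand. With 70.8% G and C the stretch is rich in these bases, above the median of 52.4% over all stretches.

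The genes around the pair served as a look at the neighbourhood, chosen after the members' values were seen. Pepd, the prolidase gene next to Cebpg on the other side from Cebpa, read 1563 ± 61.5 in mock and 1714 ± 97.0 in Nup98::Nsd1 cells, a log2 fold change of 0.13 that did not pass (SE 0.057, limma adjusted p = 0.0565). Slc7a10, an amino acid transporter on the far side of Cebpa, was called Present on 2 of 6 arrays and was not tested. Lrp3 beyond it, a gene of the LDL receptor family, was called Present on 0 arrays. Gm45095 had no probe set listed. On the other side, Chst8 and Kctd15, beyond Pepd, were called Present on 0 and 1 arrays and were not tested. Among these neighbours Pepd was thus the only one with a test.

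Cebpa, the member that directs granulocyte and monocyte fate, rose with a smaller fold than Cebpg. Its only probe set, 1418982_at, read 582, 609 and 657 on the mock arrays and 1097, 1068 and 1214 on the Nup98::Nsd1 arrays. The lowest Nup98::Nsd1 array was well above the highest mock array. Means were 616 ± 38.2 and 1127 ± 77.1 (SD, n = 3 each), a log2 fold change of 0.87 (SE 0.074, limma adjusted p = 8.76e-07). With hybridization control scaling the change was 0.51 and still passed (adjusted p = 6.58e-05). In the promoter of Cebpa, on the plus strand at chr7:35119043-35119292, capitals mark TTGCG, the core of a C/EBP site, and TATAAA, the TATA box:
Cebpa: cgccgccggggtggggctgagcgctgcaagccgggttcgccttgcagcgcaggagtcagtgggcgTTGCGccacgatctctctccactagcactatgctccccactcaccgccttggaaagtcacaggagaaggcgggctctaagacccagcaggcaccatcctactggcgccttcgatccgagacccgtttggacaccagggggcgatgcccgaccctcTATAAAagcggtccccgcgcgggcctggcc
TTGCG lies 185 bases before the start and TATAAA 30 bases before it. TTGCG occurs on either strand in 14.5% of all stretches and TATAAA on the gene's strand in 7.59%.

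Cebpb, the stress and macrophage member, rose at both of its probe sets. The brighter, 1418901_at, read 6799, 6391 and 5621 in mock cells and 8954, 9248 and 8920 in Nup98::Nsd1 cells. The third mock array was the lowest, and the groups did not overlap. Means were 6270 ± 598 and 9041 ± 181 (SD, n = 3 each), a log2 fold change of 0.53 (SE 0.061, limma adjusted p = 1.07e-05). The other, 1427844_a_at, read 2334, 2295 and 2417 against 3878, 3689 and 4300, a log2 fold change of 0.75 (SE 0.057, adjusted p = 3.55e-07). Scaled to the hybridization controls, 1418901_at was at 0.17, short of the threshold (adjusted p = 0.0648), while 1427844_a_at, at 0.38, passed (adjusted p = 7.51e-05). Both results for Cebpb therefore have the same direction and differ in their call under that scaling. The Cebpb promoter, on the plus strand at chr2:167688665-167688914, is 81.6% G and C, and capitals mark TGACG or its complement CGTCA, the core of the cyclic AMP response element:
Cebpb: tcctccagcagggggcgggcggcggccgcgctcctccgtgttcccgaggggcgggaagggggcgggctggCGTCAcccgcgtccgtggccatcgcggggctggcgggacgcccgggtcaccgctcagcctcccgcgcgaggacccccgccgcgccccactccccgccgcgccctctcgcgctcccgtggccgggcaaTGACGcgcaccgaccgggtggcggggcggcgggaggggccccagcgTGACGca
TGACG occurs 3 times, 180, 53 and 7 bases before the start, and is found on either strand in 17.8% of all stretches. None of the 3 promoters printed holds the longer C/EBP site TTGCNNAA, which 9.56% of all stretches hold on either strand, nor the C/EBP-ATF composite site TGATGNAA, held by 3.45%. A match of letters is a description of these stretches and shows no binding.

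Cebpd, the acute-phase member, changed least among the 4. Probe set 1423233_at read 976, 1005 and 952 in mock cells and 1312, 1319 and 1354 in Nup98::Nsd1 cells. Values within each group were tight, so that a change of 1.36-fold left a clear gap. Means were 978 ± 26.3 and 1329 ± 22.6 (SD, n = 3 each), a log2 fold change of 0.44 (SE 0.054, limma adjusted p = 1.75e-05). With hybridization control scaling it stood at 0.08 and did not pass (adjusted p = 0.373). Its other probe set, 1456605_at, was called Present on 1 mock array and no Nup98::Nsd1 array and was not tested. It read 227, 181 and 204 against 237, 256 and 162, and the groups overlapped. The rise of Cebpd thus rests on 1 probe set, and of the 4 other scalings it lost its call only with that to the hybridization controls.

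**Figure D2:**
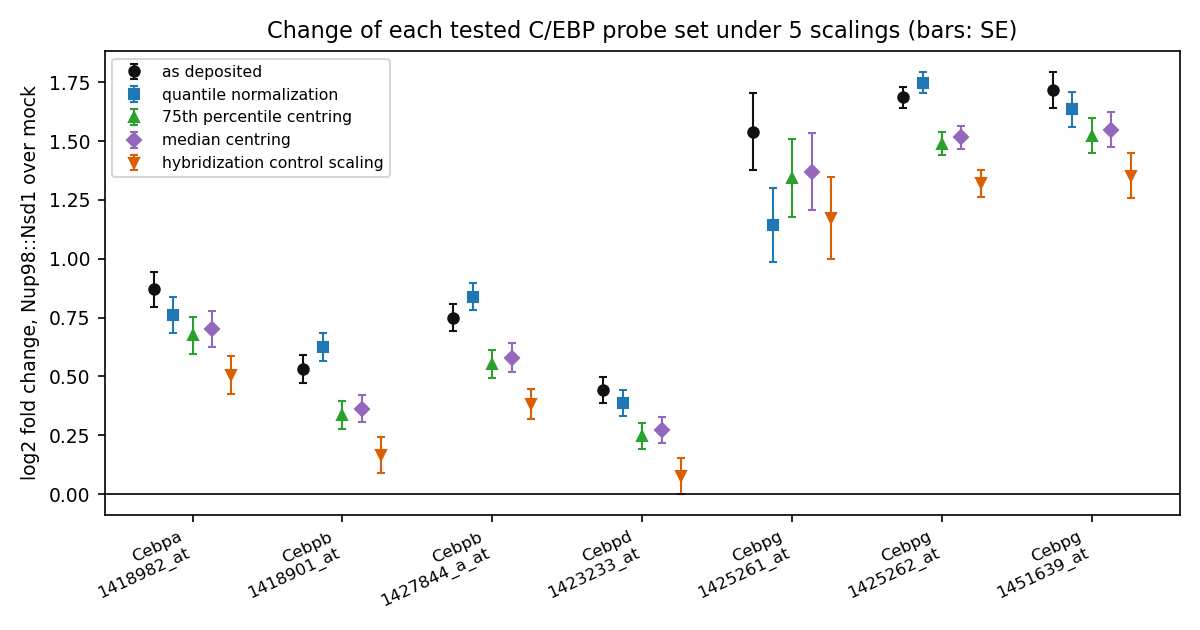
Log2 fold change of Nup98::Nsd1 over mock, with its SE as bars, for the 7 tested C/EBP probe sets under 5 scalings of the arrays. All values are above 0; with hybridization control scaling Cebpb probe set 1418901_at falls to 0.17 and Cebpd to 0.08, while Cebpg stays at 1.17 or more.

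Because a ratio taken within an array does not move when that array is rescaled, the members were also compared with each other inside each array. These ratios show unequal change and not which gene stayed level. All 6 pairs of the 4 genes were compared, at the probe set with the highest mean signal of each gene. The log2 ratio of Cebpa to Cebpg was -1.24, -1.17 and -1.15 in mock cells and -2.01, -2.08 and -1.92 in Nup98::Nsd1 cells, so that it fell by 0.82 (SE 0.054). The log2 ratio of Cebpb to Cebpg fell by 1.15 (SE 0.109). That of Cebpd to Cebpg fell by 1.24 (SE 0.048). In each of these 3 pairs the groups did not overlap, and the two-sided exact permutation p was 0.1, which is the lowest value possible with 3 arrays a group (adjusted p = 0.15 over the 6 pairs). Relative to each of the other 3 members, Cebpg thus stood higher on every Nup98::Nsd1 array than on every mock array.

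Among the other members the order was less clear. The ratio of Cebpa to Cebpd was -0.75, -0.72 and -0.54 in mock and -0.26, -0.30 and -0.16 in Nup98::Nsd1 cells, higher by 0.43 on the log2 scale (SE 0.079, exact permutation p = 0.1, adjusted p = 0.15). Cebpa against Cebpb overlapped between the groups, with a difference of 0.34 (SE 0.149, exact permutation p = 0.2, adjusted p = 0.24) that was 0.14 with quantile normalization. Cebpb against Cebpd differed by 0.09 (SE 0.074, exact permutation p = 0.3, adjusted p = 0.3) and overlapped. By the size of the change Cebpg therefore stood first, and the neighbours Cebpa and Cebpb, and Cebpb and Cebpd, could not be ordered beyond their spread.

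**Figure D3:**
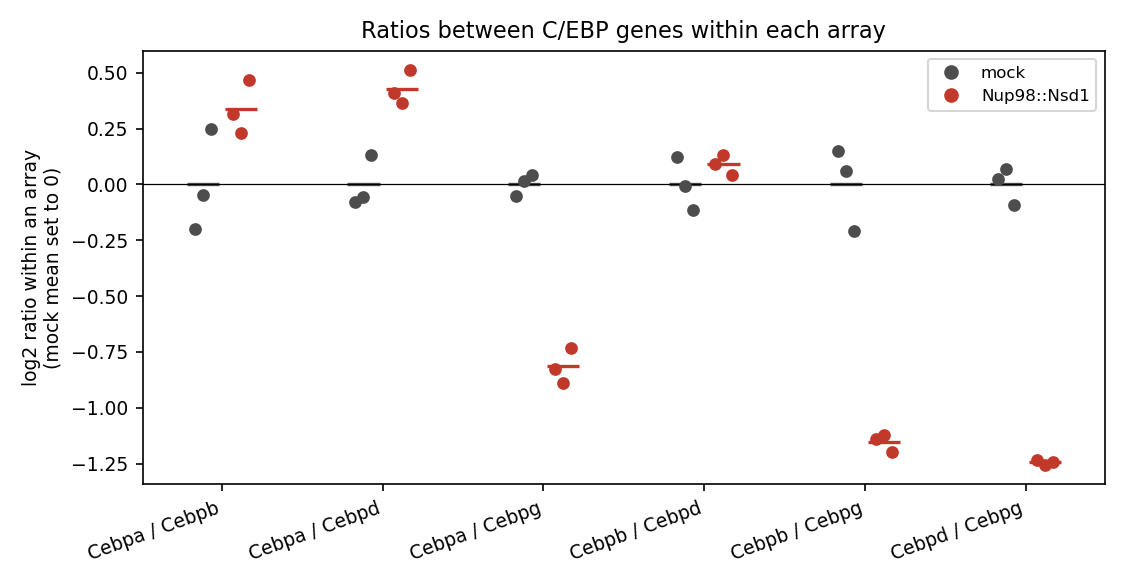
Log2 ratio between each pair of C/EBP genes within an array, with the mean of the mock arrays set to 0, for 3 mock (grey) and 3 Nup98::Nsd1 (red) arrays; lines are group means. The 3 ratios over Cebpg fell by 0.82 to 1.24 against mock with no overlap, and Cebpa over Cebpb and Cebpb over Cebpd overlap.

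The genes with the pattern most like each member were found among 9637 other tested genes, by the Euclidean distance between log2 signals centred on their mean over the 6 arrays. With 6 arrays in 2 groups, likeness mostly reflects a change of similar size. Nearest to Cebpg were Nipbl, which loads cohesin onto DNA (distance 0.105), Milr1, an inhibitory receptor of mast cells (0.109), and Parp14, an ADP-ribosyltransferase (0.112), which rose 3.25-fold, 3.10-fold and 3.08-fold. Nearest to Cebpa were Capns1, the small subunit of calpains (0.0826), Gfi1b, a transcriptional repressor of the erythroid and megakaryocyte lineages (0.088), and Wdsub1 (0.105). Nearest to Cebpb were Arhgap4 (0.0907), Dpy19l4 (0.0919) and Nsd3, a histone methyltransferase related to the fusion partner Nsd1 (0.0925), which rose 1.43-fold. Nearest to Cebpd were Snapin, a SNARE-associated protein (0.031), Mzt2 of the gamma-tubulin complex (0.0538) and the cell cycle inhibitor Cdkn2d (0.0552).

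The genes of proteins that pair with or act on C/EBP factors came next, from a list of 18. Of 13 tested partners and modifiers, 9 rose and 1 fell as deposited, with a median log2 fold change of 0.32 against 0.12 over all 9641 tested genes. Of all tested genes 42.9% were called higher, 29.5% lower and 72.3% in either direction. The number that rose was 10 with quantile normalization, 7 with median centring and 6 with 75th percentile centring. In these settings 33.3%, 32.4% and 31.0% of all tested probe sets were called higher. The largest rises were of Ddit3, which encodes CHOP, a C/EBP relative that forms inactive dimers with other members, and of Trib3, a pseudokinase that binds ATF4. Ddit3 went from 425 ± 24.6 to 6752 ± 85.1 (limma adjusted p = 1.73e-12), with log2 fold changes of 3.99 and 1.32 at its 2 probe sets, and Trib3 from 434 ± 25.1 to 6685 ± 231. Atf4, a dimer partner of C/EBPgamma, rose 1.59-fold, from 9317 ± 599 to 14829 ± 250.1. Fos, an AP-1 protein that can pair with C/EBP members, rose 5.96-fold, from 332 ± 16.9 to 1988 ± 274. Cop1, the ubiquitin ligase that Tribbles proteins bring to C/EBPalpha, had a log2 fold change of -0.28 and was the 1 gene that fell (adjusted p = 0.00157). Trib1, which guides Cop1 to C/EBPalpha, and Trib2, which does the same, were not tested: Trib1 had 0 Present calls, and Trib2 had 1, on a mock array, over its 3 probe sets. Spi1, which encodes PU.1, rose by 0.32 on the log2 scale as deposited, and stood at -0.05 with hybridization control scaling. With 75th percentile centring Spi1 stood at 0.12 and did not pass (limma adjusted p = 0.0595). The probe set taken for Runx1 stood at -0.17 and did not pass (adjusted p = 0.15), and 1 of its 4 tested probe sets was called higher, at 1.38; under each of the 4 other scalings the first was called lower, at -0.53 to -0.33. Stat3 and Calr, at 0.22 and 0.13 as deposited, stood at -0.15 and -0.23 with hybridization control scaling. Calr was then called lower (limma adjusted p = 2.68e-05) and Stat3 was not called (adjusted p = 0.136). Neither was called with 75th percentile or median centring. Gfi1 and Pcbp2 were called lower with hybridization control scaling, at -0.29 and -0.26. Pcbp2 was called higher with quantile normalization, at 0.18. With hybridization control scaling 6 partners rose and 5 fell, beside 22.3% higher and 46.8% lower over all tested probe sets. As deposited, the 3 tested probe sets of Stat3 ran from -0.01 to 1.01 with 2 called higher. Of the 3 of Calr, 1 was called higher.

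Among receptor genes that C/EBP factors activate in myeloid cells, 3 of 4 tested genes of 6 rose and 0 fell, where 42.9% of all tested genes were called higher and 72.3% in either direction. The median log2 fold change was 1.0. Csf3r, the G-CSF receptor, rose from 755 ± 31.8 to 1303 ± 61.7, or 1.72-fold (limma adjusted p = 5.35e-07). Csf1r, the M-CSF receptor, rose from 144 ± 55.0 to 318 ± 27.0, or 2.31-fold (adjusted p = 0.000431). Il6ra, the IL-6 receptor chain, was Present on no mock array and rose at least 13-fold, from 9.27 ± 5.49 to 144 ± 18.5 (adjusted p = 6.23e-06). The bound raises mock signals that lie under the lowest Present signal of their array to that signal. Il6ra entered the test through its Nup98::Nsd1 arrays alone, which favours a rise. Among receptor genes Present on all 6 arrays, 2 of 3 rose. Itgam, the CD11b integrin chain, stood at 0.08 (adjusted p = 0.314) and at -0.29 with hybridization control scaling, where it was called lower. Cd14 and Csf2ra were called Present on 0 arrays.

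Granule protein genes, classic targets of C/EBPalpha and C/EBPepsilon, went in both directions. Of 10 tested genes of 14, 3 rose and 5 fell, beside 42.9% higher and 29.5% lower over all tested genes, with a median log2 fold change of -0.09. Among primary granule genes, Mpo, which encodes myeloperoxidase, went from 19095 ± 841 to 5183 ± 35.6, 3.68-fold lower (limma adjusted p = 5.29e-11), while Ctsg, cathepsin G, stood at 0.05 (adjusted p = 0.258). With quantile normalization Ctsg was called higher, at 0.10, and with the other 3 scalings lower, at -0.32 to -0.12. Elane, neutrophil elastase, was Present on no Nup98::Nsd1 array and went from 186 ± 33.4 to 76.5 ± 18.8, a difference of -1.30 between the means of log2 signals. With Nup98::Nsd1 signals not called Present, the size of this difference is uncertain. No such signal of Elane lay under the lowest Present signal of its array, so none was raised. Elane entered the test through its mock arrays alone, which favours a fall. Among 9 granule genes Present on all 6 arrays, 3 rose and 4 fell. Prtn3, proteinase 3, had a log2 fold change of -0.92. Among secondary granule genes, Lcn2, a siderophore-binding protein, rose 7.39-fold, from 2004 ± 21.1 to 14812 ± 297, and Ngp, a cathelicidin-like granule protein, was 6.30-fold lower, going from 1417 ± 133 to 225 ± 19.9. Lyz2, lysozyme of granulocytes and macrophages, rose from 613 ± 25.6 to 1688 ± 28.2, or 2.75-fold; the near-identical Lyz1 could cross-hybridise. Ltf, Camp, Mmp8 and Chil3, which mark later granulocytes or activated macrophages, were called Present on 0 arrays. S100a8 rose by 0.16 as deposited (adjusted p = 0.0329) but stood at -0.04 with 75th percentile centring, at -0.01 with median centring and at -0.21, called lower, with hybridization control scaling. Under that last scaling 2 granule genes rose and 7 fell, beside 22.3% higher and 46.8% lower over all tested probe sets. Mmp9, at 0.09 as deposited, then stood at -0.27 and was called in neither setting.

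Markers of other cell types moved with these results, and their part in them was not tested. Of 8 macrophage markers 4 were tested, with 3 higher and 1 lower; the summed signal of the 7 on the array was 5098 to 5364 on mock and 7297 to 7484 on Nup98::Nsd1 arrays, with Cd14 and Marco Present on 0 arrays. The summed signal of the 8 mature neutrophil markers on the array was 7768 to 8091 in mock and 5915 to 6367 in Nup98::Nsd1 cells, with Ltf, Camp, Mmp8 and Cxcr2 Present on 0 arrays. Of its 4 tested markers 1 was higher as deposited, S100a8, 2 were lower, Ngp and S100a9, and Mmp9 was not called. In RNA of whole cultures, fewer cells of a type and less RNA per cell cannot be told apart. The summed signal of 5 megakaryocyte markers was 3528 to 3736 in mock and 10039 to 10321 in Nup98::Nsd1 cells, and none of the 5 was without a Present call. That of 8 mast cell and basophil markers was 9176 to 9563 and 4414 to 4461, with Kit, Cma1, Mcpt4 and Tpsb2 Present on 0 arrays. Of its 4 tested markers 2 were higher, Cpa3 and Mcpt8, and 2 lower, among them Fcer1a, which went from 7353 ± 154 to 1349 ± 63.9. The fall of Fcer1a alone was larger than that of the sum. That of 5 eosinophil markers was 2354 to 2486 and 690 to 735, with Ccr3 and Il5ra Present on 0 arrays. That of 5 T and NK cell markers was 4417 to 4682 and 945 to 1048, with Cd3e, Cd3g, Cd4 and Cd8a not Present at their brightest probe set on any array and Nkg7 5.21-fold lower. C/EBP genes are also active in liver and fat, and of 5 hepatocyte and adipocyte markers 0 were tested, as were 0 of 5 fibroblast markers.

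The letters of a C/EBP site, TTGCNNAA on either strand, were searched in the promoter stretches of the 5 lists. They occurred in 5 of 13 granule genes with a promoter in the table and in 4 of 8 inflammatory and acute-phase genes. They occurred in 0 of 4 receptor and adhesion genes, in 1 of 14 partners and modifiers and in 0 of 2 genes repressed by C/EBPalpha. Of all stretches 9.56% held these letters. A gene counted if any of its stretches held a match, so the counts of genes and that share differ in unit. The lists were chosen from textbook knowledge, and a difference from that share was not tested. The sites of the called genes are shown with up to 6 bases on each side, capitals marking the site, on each gene's strand in build GRCm38.p6. They are those of Lcn2 at chr2:32387942-32387961, Ngp at chr9:110419664-110419683, S100a9 at chr3:90695944-90695963 and Il6 at chr5:30012980-30012999:
Lcn2: ttcctgTTGCTCAAccttgc
Ngp: ggtttaTTGCCCAAacctcc
S100a9: gctgtcTTGCTTAAgatttg
Il6: gtcacaTTGTGCAAtcttaa
The genes that hold these letters did not share a direction: Lcn2 and Il6 rose, and Ngp, which holds another match 11 bases before its start, and S100a9 fell. With quantile normalization S100a9 stood at -0.10 and did not pass (limma adjusted p = 0.0806).

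Inflammatory and acute-phase genes, targets of C/EBPbeta and C/EBPdelta in other settings, were tested in 6 cases of 12. Of these 2 rose and 0 fell, beside 42.9% higher and 29.5% lower over all tested genes, with a median log2 fold change of 0.26. Il6, the cytokine through whose promoter C/EBPbeta was found, rose from 561 ± 31.9 to 2372 ± 91.4, or 4.23-fold (limma adjusted p = 2.92e-10). The chemokine gene Ccl3 was Present on no mock array and went from 90.5 ± 12 to 618 ± 21.0, a difference of 2.78 between the means of log2 signals (adjusted p = 8.09e-09). With mock signals not called Present, the size of this difference is uncertain. No mock signal of Ccl3 lay under the lowest Present signal of its array, so none was raised. Ccl3 and Il1b entered the test through their Nup98::Nsd1 arrays alone, which favours a rise. Among inflammatory genes Present on all 6 arrays, 1 of 4 rose. Il1b, Tnf, Saa3 and Hp did not pass, at 0.41, 0.11, 0.01 and -0.11 on the log2 scale. With hybridization control scaling Tnf stood at -0.26 and Saa3 at -0.36, neither of them called. Hp, the acute-phase haptoglobin, was called lower under each of the 4 other scalings, at -0.47 to -0.24.

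Of 3 genes that C/EBPalpha is known to repress, 2 fell and 0 rose, beside 29.5% lower and 72.3% called in either direction over all tested genes. E2f1, a driver of S phase entry, went from 737 ± 91.4 to 543 ± 56.2 at its brightest probe set (log2 fold change -0.44, limma adjusted p = 0.00271). The other of its 2 tested probe sets stood at -0.19 and was not called. Sox4, a leukaemia-associated transcription factor, went from 3429 ± 176 to 2780 ± 133 at its brightest probe set (-0.30, adjusted p = 0.000308), but of its 5 tested probe sets 1 was called lower and 2 higher, up to 0.95. Myc stood at 0.06 (adjusted p = 0.275). It was called higher with quantile normalization, at 0.20, and lower with 75th percentile centring, at -0.14, and with hybridization control scaling, at -0.31.

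**Figure D4:**
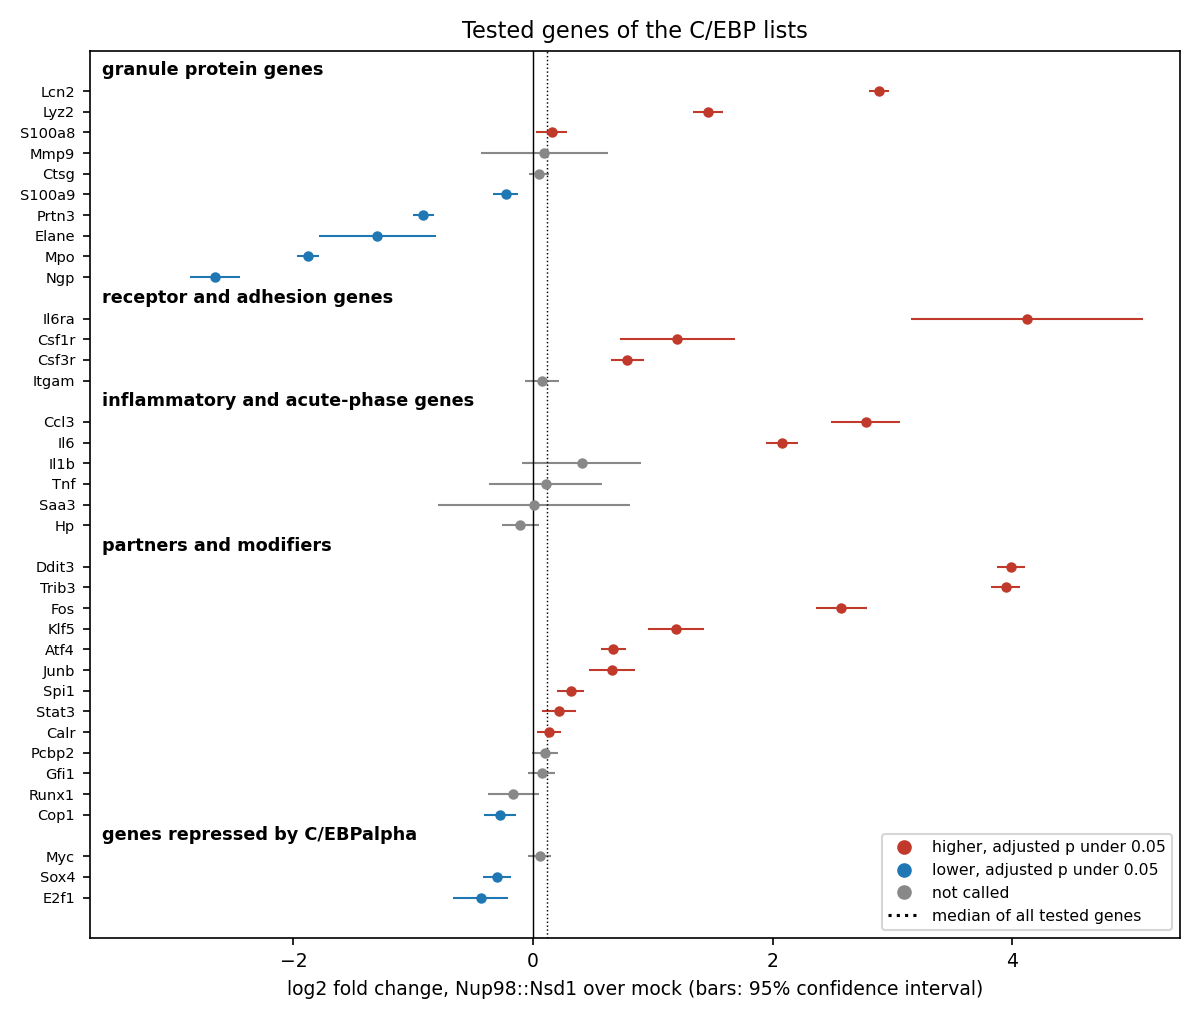
Log2 fold change of Nup98::Nsd1 over mock, with its 95% confidence interval, for each tested gene of the 5 lists, coloured by call; the dotted line is the median of all tested genes, 0.12. Receptors and partners lie mostly to the right of it, granule genes on both sides, from -2.66 for Ngp to 2.89 for Lcn2.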

How the data were processed

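Total RNA of 3 mock and 3 Nup98::Nsd1 samples was labelled with biotin and hybridised to 1 array each. The authors deposited, per the file headers, a MAS5 signal intensity, a detection call and a detection p-value for each probe set. MAS5 is named in the submitters' processing notes, and the deposited intensity had been scaled to a common trimmed mean. The deposited table of the whole series held the same values, to rounding. Signals under 1 were raised to 1, and log2 values were used without rescaling. The 20494 probe sets Present on all 3 arrays of a group were fitted in limma 3.58.1 (R 4.3.3) with an intensity trend, and p-values were adjusted by Benjamini-Hochberg over all of them; calls are at 0.05. Each gene took the values of its brightest tested probe set, by mean log2 signal, and genes were named from the platform annotation. Named genes are the members, up to 4 called genes of each list with the smallest p, the 3 nearest to each member, and label checks; other list genes and the chromosomal neighbours were named after their values were seen. The fit was tested on simulated data. Members and lists were chosen with earlier results of these data known. The number of arrays limits the precision.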

Additional observations from a re-analysis of the deposited data

How the results depend on the processing

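Every one of 130 alternative values of the 7 tested C/EBP probe sets was above 0, and 128 kept the call. Only the 4 other scalings could have moved a value under 0. The groups did not overlap at these probe sets, and the remaining settings do not shift arrays against each other. Calls were lost only with hybridization control scaling, where Cebpb stood at 0.17 (limma adjusted p = 0.0648) and Cebpd at 0.077 (adjusted p = 0.373). The cause was not tested. That scaling gave 4573 probe sets higher and 9586 lower, against 8678 and 5657 as deposited, and the median over tested probe sets then was -0.21 on the log2 scale. As deposited, 60.5% of calls were higher; scaling to the hybridization controls gave 32.3%, centring on the 75th percentile 44.8%, on the median 47.1%, and quantile normalization 49.7%. Receptor genes called lower numbered 1 with hybridization control scaling. Inflammatory genes called higher numbered 1 when only probe sets Present on all 6 arrays were tested, and those called lower numbered 1 under each of the 4 other scalings. Partners called lower numbered 2 with quantile normalization, 75th percentile or median centring, and 5 with hybridization control scaling; leaving out 1 array gave 1 to 2, with 2 without mock replicate 1. Of the genes repressed by C/EBPalpha, 1 was higher with quantile normalization, and 1 was higher and 1 lower when probe sets of a gene were averaged. The log2 ratio of Cebpa to Cebpg fell by 0.99 with quantile normalization. Leaving out each array in turn gave 0.82 to 0.92 for Cebpa, 0.46 to 0.59 for Cebpb, 0.42 to 0.46 for Cebpd and 1.67 to 1.71 for Cebpg. Same-numbered samples did not deviate together (r = -0.017, -0.011 and 0.021 across probe sets, which are not independent). This shows no shared effect of the number and cannot tell whether such samples were grown or processed together. With the replicate number as a block the log2 fold changes stay the same by design, 0.87 for Cebpa, 0.53 for Cebpb, 0.44 for Cebpd and 1.69 for Cebpg. All were still called, and 8628 probe sets were higher. Cebpe and its ratio could not be run for want of a listed probe set.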
